A study of Mus musculus with 24 samples.

Results

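The 36 genes described here code for the enzymes and carriers that take glucose to pyruvate and lactate, move pyruvate into the mitochondrial pyruvate dehydrogenase reaction, or divert glucose into the pentose phosphate pathway. They were chosen by symbol from a fixed list, and all 36 were present among the 19780 genes of the deposited table for control cells and among the 19979 genes of that for paused cells. The cells were mouse E14 embryonic stem cells grown in serum with leukaemia inhibitory factor, in a medium that also contained sodium pyruvate. Each of 3 genotypes, wild type (WT) and the Smad2 knockouts Smad2_KO1 and Smad2_KO2, was sampled in control medium and after 12 h with 200 nM INK128, which inhibits the kinase mTOR and was used to induce pausing in culture. Each of the 6 groups held 4 libraries of poly(A) RNA from 50000 live cells. How the knockouts were made, and whether Smad2_KO1 and Smad2_KO2 are single clones, is not given in the sources used here.

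Glycolysis splits each glucose into a pair of pyruvate molecules and yields ATP and NADH without oxygen. Lactate dehydrogenase turns pyruvate into lactate and restores NAD+, monocarboxylate carriers let lactate leave the cell, and pyruvate dehydrogenase instead commits pyruvate to the tricarboxylic acid cycle unless its kinases switch it off. The pentose phosphate pathway supplies NADPH and ribose. Embryonic stem cells in serum medium are known for a high rate of glycolysis, and mTOR is known to raise transcription of glycolytic genes through hypoxia-inducible factor and Myc. Smad2 is a transcription factor activated by the receptors for Nodal and activin.

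Each deposited table gives, per gene, a mean of normalized read counts over its libraries, a log2 change, the standard error (SE) of that change, and p-values. Values of single libraries are not in the tables, so spread between libraries enters only through the SE, and depth per library is unknown. The labels number the replicates without saying that they were separate cultures, and p-values then measure only the spread between these samples. The numerator of the change is not named. It was read as knockout over WT because Smad2 itself had a log2 change of -0.35 (SE 0.07) in control and -0.63 (SE 0.057) in paused cells, per the authors' deposited tables, that is 78.6% and 64.6% of the WT level. The opposite reading would turn every direction of the knockout change given below, and these levels are counts per gene, which do not measure the protein. All 8 markers of pluripotent cells, the labelled type, were present, with mean counts from 12896 to 51710 in control and from 11866 to 44100 in paused cells, per the authors' deposited tables, and 1 was higher and 2 lower in the knockout in each. Of 6 primitive endoderm markers, 5 were higher in the knockout in both deposited tables, with summed mean counts of 907 and 1729. Of the fibroblast markers, 0 were higher and 3 lower of 5 present in control cells, and 0 higher and 2 lower of 4 present in paused cells. Their summed counts were 776 and 763. Lum was in neither deposited table, and Dcn, called lower in control cells, was not in that for paused cells. Trophoblast markers had 1 higher and 1 lower of 6 and neural markers 1 higher and 2 lower of 4 in each table, and of 3 mesoderm markers present 0 were higher and 2 (control) or 3 (paused) lower, in the deposited tables. At the same adjusted p under 0.05, 19.5% and 20.5% of all genes were higher and 21.9% and 22.0% lower. The part of these other cell types in the results was not tested, and in bulk RNA fewer cells of a type and less RNA per cell cannot be told apart.

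Loss of Smad2 went with small shifts of these transcripts, more often down than up. In control cells 17 of the 36 passed an adjusted p of 0.05 in the authors' deposited table, 3 higher and 14 lower. That is 47.2% of the members, where 41.4% of all genes passed. The members called lower were 38.9% against 21.9% of all genes, and those called higher 8.33% against 19.5%. In paused cells 21 passed, 4 higher and 17 lower, which is 58.3% against 42.6% of all genes, with 47.2% called lower against 22.0% and 11.1% called higher against 20.5%. The members are abundant transcripts, and among all genes whose mean reached 5 ppm of the table's summed counts (230 in control and 221 in paused cells), 51.6% and 53.0% were called, 19.0% and 20.2% higher, and 32.6% were called lower in control and 32.8% in paused cells. The median log2 change of the members was -0.10 in control and -0.14 in paused cells, beside 0.00 and -0.0016 for all genes and -0.05 in both tables for abundant genes.

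The changes were small. No member changed 2-fold, the largest being 1.55-fold in control and 1.78-fold in paused cells, per the authors' deposited tables. The median size of the called changes was 0.33 on the log2 scale in control and 0.21 in paused cells, beside 0.41 and 0.37 for all called genes. At an adjusted p of 0.01, 14 and 20 members passed, beside 30.9% and 32.3% of all genes. Tested with the deposited SEs against a change of at most 1.2-fold, 0 members passed in control cells (4 at an unadjusted p under 0.05) and 2 in paused cells, Slc16a3 and Ldhb, beside 10.6% of all genes in each table. Because so large a share of all genes passed, the deposited statistic was also scaled to the spread of its middle values over all genes, which left 0 members called in either table (5 in control and 6 in paused cells at an unadjusted p under 0.05), beside 1.48% and 2.25% of all genes. The shares of 10.6%, 1.48% and 2.25% are for the adjusted p. No share of all genes at an unadjusted p is given here for the member counts at that threshold.

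The split also moved with the scaling. With each table centred on the median of its abundant genes, 4 members were higher and 10 lower in control cells, where 39.7% of all genes were called, 23.9% higher and 15.9% lower. In paused cells 7 were then higher and 15 lower, where 40.9% were called, 24.9% higher and 16.0% lower. With equal summed counts 4 were higher and 9 lower in control cells, where 39.8% of all genes were called, 24.1% higher and 15.7% lower. In paused cells 6 were higher and 15 lower, where 41.1% were called, 23.7% higher and 17.4% lower. Under both of these scalings more members were lower than higher, while among all genes more were higher. Each scaling adds the same value to every gene of a table, which by itself moves the split of all genes towards higher. No conclusion is drawn from this contrast, since the split of abundant genes is not given under these scalings. The control calls of Slc16a1, Aldoc, Pgam1 and Pkm and the paused calls of Pdk3 and G6pdx were lost under both, and that of Dlat in control cells with equal summed counts (-0.11, adjusted p = 0.0514). Calls were also gained: Slc16a1 and Ldha in paused cells and Pck2 in control cells passed as higher under both, and Pdp1 in paused cells with the median centring (0.14, adjusted p = 0.0398).

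Of the members, 16 were called in both tables, 13 lower in both and 3 higher in both, and 0 were called in opposite directions. Among all 19134 shared genes, 30.4% were called in both, 16.0% lower in both, 14.3% higher in both and 0.162% in opposite directions. The 3 higher in both were Hk1, Pfkp and Pdk2. Fewer were lower in both under the other scalings. With the median centring and with equal summed counts, Aldoc, Pgam1 and Pkm lost the control call and G6pdx the paused call. Dlat lost the control call with equal summed counts. The sign of the change was shared by 31 of 36 (86.1%), near the 79.6% of all genes, and across the 36 genes, which are not independent replicates, the changes of the 2 tables had a Pearson r of 0.784 and a Spearman rho of 0.824, beside 0.818 and 0.757 over all genes. The tables have no library in common per the labels, but they share the labelled knockout lines. The remaining 6 of the 22 members called in at least 1 table were Slc16a1 in control cells, and Slc2a3, Slc16a3, Gpi1, Pdk3 and Taldo1 in paused cells. The other 14 were called in neither.

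**Figure D1:**
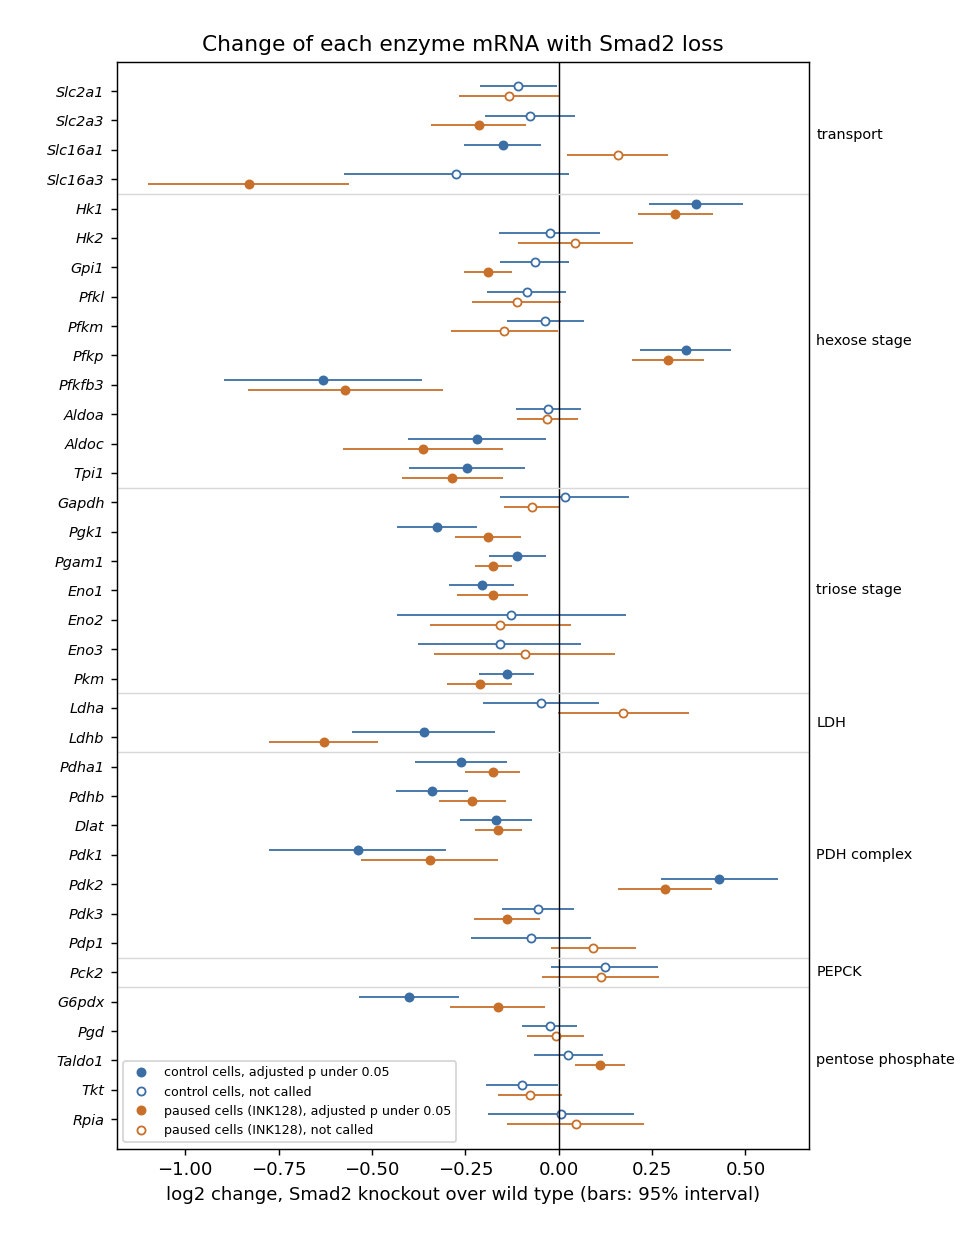
Log2 change of each of the 36 transcripts, Smad2 knockout over wild type, in control cells (blue) and paused cells (orange), from the authors' deposited tables, ordered by role. Points are the deposited changes, bars their 95% intervals (1.96 SE), and filled points have an adjusted p under 0.05. Most filled points lie left of 0, and Hk1, Pfkp and Pdk2 lie right of it in both tables.

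Of the 4 carriers at the cell surface, 1 was called in control cells (Slc16a1, lower) and 2 in paused cells (Slc2a3 and Slc16a3, both lower). Among all genes 21.9% and 22.0% were called lower, and among abundant genes 32.6% and 32.8%. Slc16a3, a low-affinity carrier known for lactate export from glycolytic cells, had a mean count of 2091 and a log2 change of -0.27 (SE 0.15, adjusted p = 0.146) in control cells, per the authors' deposited table. In paused cells its mean count was 327 and it fell by 0.83 (SE 0.14, adjusted p = 1.63e-08), to 56.3% of the WT level, the largest change of any member in the deposited tables. Slc16a1, the carrier that moves lactate and pyruvate in either direction, had a mean of 5812 and fell by 0.15 (SE 0.052, adjusted p = 0.0126) in control cells in the deposited table. In paused cells its mean was 3374 and its change was 0.16 (SE 0.069, adjusted p = 0.0502), which passed with the table centred on abundant genes (0.20, adjusted p = 0.0091), with equal summed counts (0.19, adjusted p = 0.0146) and among abundant genes alone (adjusted p = 0.0415). Its control fall was lost under both shifts. Slc2a3, a high-affinity glucose carrier, fell by 0.21 (SE 0.065, adjusted p = 0.00329) in paused cells, with -0.08 (SE 0.062, adjusted p = 0.336) in control cells in the deposited tables. Slc2a1, the other glucose carrier, had -0.11 and -0.13 and was called in neither.

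In the hexose stage of glycolysis, which primes glucose with phosphate and splits it, 2 of 10 members were higher and 3 lower in control cells, and 2 higher and 4 lower in paused cells. Of all genes 19.5% and 20.5% were called higher and 21.9% and 22.0% lower in control and paused cells. Of abundant genes 19.0% and 20.2% were called higher and 32.6% and 32.8% lower. Hk1, the hexokinase found in most tissues, rose by 0.37 (SE 0.064, adjusted p = 1.34e-07) in control and by 0.31 (SE 0.051, adjusted p = 1.56e-08) in paused cells, per the authors' deposited tables, with mean counts of 2718 and 4082. Hk2, the hexokinase induced by growth signals, had -0.02 and 0.04 and was not called in either table. Pfkp, 1 of 3 phosphofructokinase genes, rose by 0.34 (SE 0.062, adjusted p = 5.05e-07) and by 0.29 (SE 0.050, adjusted p = 4.19e-08) in the deposited tables, while Pfkl and Pfkm were called in neither, with changes between -0.15 and -0.04. Pfkfb3 makes the sugar phosphate that activates phosphofructokinase, and it had the largest fall of any member in control cells. It fell by 0.63 (SE 0.14, adjusted p = 2.29e-05) in control and by 0.57 (SE 0.13, adjusted p = 9.81e-05) in paused cells in the deposited tables, to 64.6% and 67.3% of the WT level, with mean counts of 1099 and 1050. The transcripts of the phosphofructokinase Pfkp and of the activator-making Pfkfb3 thus moved in opposite directions in both conditions.

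Of the remaining hexose-stage members, Tpi1 and Aldoc were lower in both conditions and Gpi1 in paused cells. Tpi1, which interconverts the triose phosphates, fell by 0.25 (SE 0.079, adjusted p = 0.00678) with a mean of 12252 in control cells and by 0.28 (SE 0.069, adjusted p = 0.000213) with a mean of 2652 in paused cells, per the authors' deposited tables. Aldoc, the minor aldolase here, fell by 0.22 (SE 0.094, adjusted p = 0.0494) and by 0.36 (SE 0.11, adjusted p = 0.00317), with mean counts of 333 and 145. The control call of Aldoc was lost with the median centring (adjusted p = 0.155) and with equal summed counts (adjusted p = 0.160). It was also lost at an adjusted p of 0.01. Aldoa, the main aldolase, had -0.03 in both deposited tables and was not called. Gpi1, which turns glucose phosphate into fructose phosphate, fell by 0.19 (SE 0.032, adjusted p = 6.4e-08) in paused cells and had -0.06 (SE 0.047, adjusted p = 0.285) in control cells.

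In the triose stage, where ATP is made, 4 of 7 members were lower and 0 higher in each condition, and they were Pgk1, Pgam1, Eno1 and Pkm in both. Of all genes 21.9% and 22.0% were called lower, and of abundant genes 32.6% and 32.8%. With the median centring the control calls of Pgam1 (-0.06, adjusted p = 0.245) and Pkm (-0.09, adjusted p = 0.0526) were lost. With equal summed counts they were lost too (adjusted p = 0.262 and 0.0584). Pgk1, the first of the ATP-making kinases, fell by 0.33 (SE 0.055, adjusted p = 4.77e-08) in control and by 0.19 (SE 0.045, adjusted p = 0.000124) in paused cells, per the authors' deposited tables, with mean counts of 25361 and 12303. Pgam1, the mutase after it, fell by 0.11 (SE 0.039, adjusted p = 0.014) and by 0.17 (SE 0.026, adjusted p = 1.99e-10), with mean counts of 46111 and 19553. Eno1, the main enolase, fell by 0.21 (SE 0.044, adjusted p = 2.28e-05) and by 0.18 (SE 0.048, adjusted p = 0.00103) in the deposited tables, with mean counts of 101157 and 51630. Pkm, the pyruvate kinase that makes the last ATP, fell by 0.14 (SE 0.037, adjusted p = 0.000889) and by 0.21 (SE 0.045, adjusted p = 1.51e-05), with mean counts of 135445 and 59210. Each of these 4 is a single catalytic step of the lower pathway, and none of their changes exceeded 0.33 on the log2 scale. Gapdh, often used as a reference gene, had 0.02 (SE 0.088) and -0.07 (SE 0.037) in the deposited tables and was not called, nor were the enolases Eno2 and Eno3, with changes between -0.16 and -0.09.

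Some of these counts share sequence with other genes. Of the 36 members, 12 have a transcript copy at 95% identity or more over at least 300 bases in the GENCODE M21 annotation, and for 4 of them a copy is itself a row of the tables. Eno1b matches Eno1 at 99.5% over 1736 bases, had 56.8% and 57.4% of its mean count, and had changes of -0.18 and -0.17 in the authors' deposited tables. The copies of Gapdh summed to 152% and 150% of the Gapdh count, so the values of Eno1 and Gapdh are uncertain to the extent that reads were divided between copies. Pfkp shares 748 bases with the overlapping gene Pitrm1, whose count was 56.1% and 84.8% of that of Pfkp. The changes of Pitrm1, -0.29 and -0.31 in the deposited tables, were opposite to those of Pfkp. Pdha1 shares 426 bases with Map3k15, whose count was 4.17% and 5.33% of that of Pdha1. The kit kept strand per the labels, and whether the counting used it is not given in the sources used here.

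Lactate dehydrogenase is built from the subunits of Ldha and Ldhb, of which the Ldha form is known for favouring lactate formation and the Ldhb form for favouring pyruvate. Ldhb fell by 0.36 (SE 0.098, adjusted p = 0.00102) with a mean of 7707 in control cells, to 77.9% of the WT level, in the authors' deposited table. In paused cells it fell by 0.63 (SE 0.075, adjusted p = 1.34e-15) with a mean of 13536, to 64.6%, the smallest adjusted p of any member in the deposited tables. Ldha had -0.05 (SE 0.079, adjusted p = 0.678) with a mean of 40180 in control cells and 0.17 (SE 0.090, adjusted p = 0.11) with a mean of 6464 in paused cells, and was not called in either. With the paused table centred on its abundant genes, or scaled to equal summed counts, the paused Ldha change passed the threshold at 0.22 and 0.21.

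Of the pyruvate dehydrogenase complex, Pdha1, Pdhb and Dlat were lower in both conditions. Pdha1 and Pdhb code for the alpha and beta subunits of the enzyme that removes carbon dioxide from pyruvate, and Dlat for the core that takes up the acetyl group. Pdhb fell by 0.34 (SE 0.049, adjusted p = 1.1e-10) in control and by 0.23 (SE 0.046, adjusted p = 2.96e-06) in paused cells, with mean counts of 6803 and 5158, in the authors' deposited tables. Pdha1 fell by 0.26 (SE 0.062, adjusted p = 0.000161) and by 0.18 (SE 0.038, adjusted p = 2.17e-05), with mean counts of 10004 and 12602. Dlat fell by 0.17 (SE 0.049, adjusted p = 0.00232) and by 0.16 (SE 0.033, adjusted p = 5.81e-06) in the deposited tables, with mean counts of 3956 and 3916. All 3 were called lower in both deposited tables, where 16.0% of all shared genes were. The control call of Dlat was lost with equal summed counts (adjusted p = 0.0514). Other genes of the complex, chosen after their values were seen, did not all share the direction. Dld, the dehydrogenase subunit, fell by 0.18 and 0.15, Pdhx, which binds Dld to the core, had 0.06 and 0.03 and was not called, and Pdha2, a second alpha subunit gene known from testis, rose by 0.83 (SE 0.20) and 0.93 (SE 0.29) at mean counts of only 44.1 and 20.5, in the deposited tables.

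The kinases that switch the complex off did not move together. Pdk1 fell by 0.54 (SE 0.12, adjusted p = 5.91e-05) in control and by 0.35 (SE 0.094, adjusted p = 0.000946) in paused cells, per the authors' deposited tables, to 68.9% and 78.7% of the WT level, with mean counts of 3892 and 6174. Pdk2 rose by 0.43 (SE 0.080, adjusted p = 7.51e-07) and by 0.28 (SE 0.064, adjusted p = 4.93e-05) in the deposited tables, to 135% and 122%, with mean counts of 296 and 534. Pdk3 fell by 0.14 (SE 0.045, adjusted p = 0.0077) in paused cells and had -0.06 (SE 0.050, adjusted p = 0.393) in control cells. Its paused call was lost with the median centring (-0.09, adjusted p = 0.0967) and with equal summed counts (-0.10, adjusted p = 0.0565). Pdp1, a phosphatase that switches the complex back on, had -0.07 and 0.09 in the deposited tables and was not called. Pdp2, another such phosphatase, is not a member and was chosen after its values were seen. It rose by 0.36 (SE 0.047, adjusted p = 2.67e-13) in control and by 0.47 (SE 0.070, adjusted p = 3.07e-10) in paused cells. Its mean counts were 1149 and 1263 in the deposited tables. Pck2, which makes phosphoenolpyruvate in mitochondria, had 0.12 and 0.11 and was not called in the deposited tables, while its control change passed as higher with the median centring (0.18, adjusted p = 0.0397) and with equal summed counts (0.18, adjusted p = 0.0376).

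In the pentose phosphate pathway 1 of 5 members was called in control cells and 2 in paused cells. Among all genes 41.4% and 42.6% were called, and among abundant genes 51.6% and 53.0%. G6pdx, the enzyme of the first and NADPH-yielding step, fell by 0.40 (SE 0.068, adjusted p = 5.54e-08) with a mean of 3183 in control cells, to 75.8% of the WT level, and by 0.16 (SE 0.065, adjusted p = 0.0306) with a mean of 1775 in paused cells, per the authors' deposited tables. The paused call of G6pdx was lost when that table was centred on its abundant genes (-0.12) or scaled to equal summed counts (-0.13). Taldo1, of the branch that returns pentoses to glycolysis, rose by 0.11 (SE 0.034, adjusted p = 0.004) in paused cells and had 0.03 (SE 0.047, adjusted p = 0.692) in control cells in the deposited tables. Pgd, which yields the second NADPH, Tkt, the transketolase, and Rpia, which makes ribose phosphate, were called in neither table, with changes from -0.10 to 0.05.

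Whether a change depended on the condition was tested directly, as the paused change minus the control change over the root of their summed squared SEs, with p-values adjusted by Benjamini-Hochberg over the 19134 genes that the authors' deposited tables share. Of the 36 members 1 passed, Slc16a1, where 1.44% of all genes (275) passed. The difference for Slc16a1 was 0.31 (SE 0.086, 95% interval 0.14 to 0.48, adjusted p = 0.0319), from -0.15 in control cells to 0.16 in paused cells. It missed the threshold with the tables scaled to equal summed counts (adjusted p = 0.0516, where 1.54% of all genes passed) and with the scaled statistic (adjusted p = 0.332, where 0.183% passed). It passed with the tables centred on abundant genes (adjusted p = 0.0379, where 1.51% passed) and among abundant genes alone (adjusted p = 0.0211, where 2.93% passed). At an adjusted p of 0.01 (0.533% of all genes) and against a difference of at most 1.2-fold (0.0105%), 0 members passed, with 5 and 0 at an unadjusted p under 0.05.

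Another 4 members had an unadjusted p under 0.05 for the difference, so that 5 of 36 did in all, a share near the 12.9% of all genes. Slc16a3 had a difference of -0.56 (SE 0.21, 95% interval -0.96 to -0.15, adjusted p = 0.165), and Ldhb one of -0.27 (SE 0.12, 95% interval -0.51 to -0.03, adjusted p = 0.312), both lower in the knockout by more in paused cells by the deposited changes. G6pdx had 0.24 (SE 0.094, adjusted p = 0.21) and Gpi1 had -0.12 (SE 0.057, adjusted p = 0.31). The difference between the knockout effects on Slc16a3 in the 2 conditions was thus not established, although only the paused change passed in the deposited tables. The median difference over the members was -0.01, beside 0.01 for all genes.

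**Figure D2:**
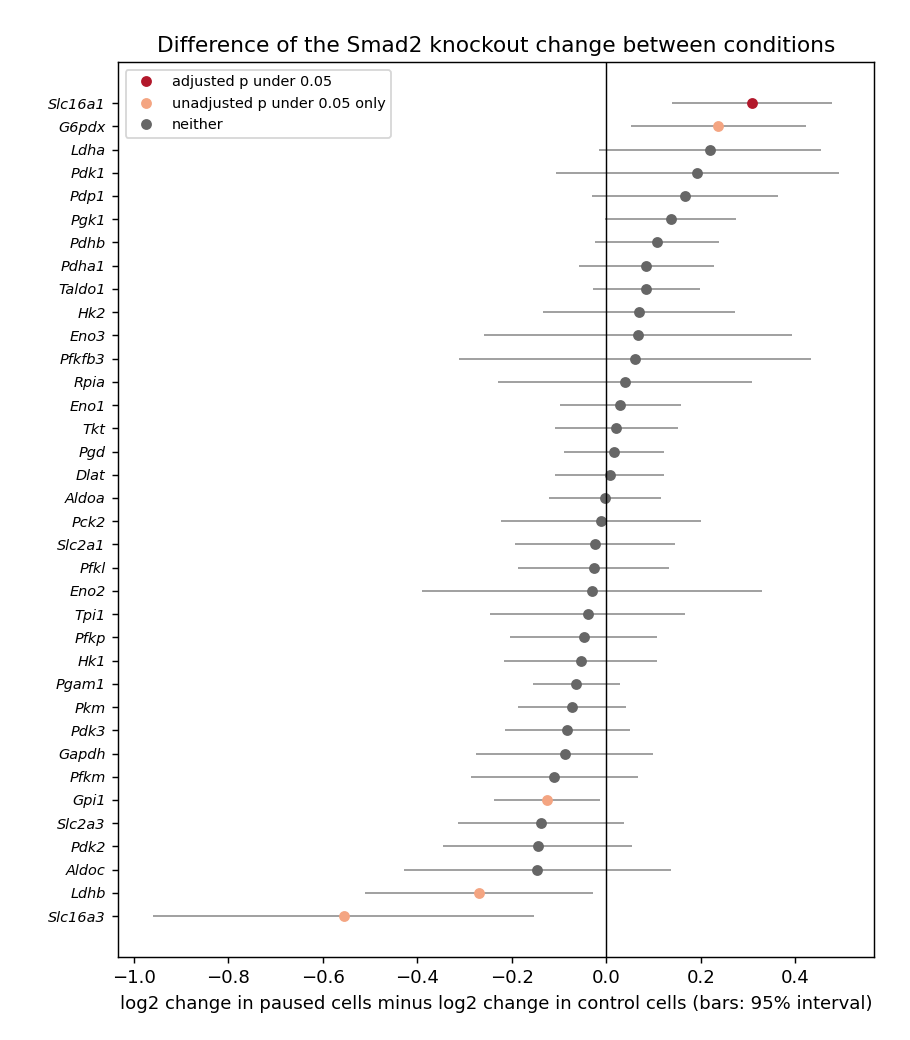
Difference of the knockout change between conditions for each of the 36 transcripts, as the paused minus the control log2 change, from the authors' deposited tables. Bars are 95% intervals (1.96 SE), and colours show which members passed. Slc16a1 (0.31) is the member past the adjusted threshold, and Slc16a3 (-0.56) lies farthest below 0 with the widest interval.

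The mean counts of the tables also allow the levels of paused and control cells to be set side by side. This has no test, since the tables hold no library values and were normalized separately, and each mean runs over WT and knockout libraries. The median log2 ratio of mean counts, paused over control, was -0.59 for the members beside 0.03 for all 19134 genes in both deposited tables and 0.01 for the 11317 abundant ones. The ratio was below 0 for 27 of 36 members. It was at least 2-fold lower for 10 of 36, where 6.08% of all genes and 4.44% of abundant genes were. It was at least 2-fold higher for 0, where 7.57% of all genes and 4.90% of abundant genes were. The members made up 1.46% of the summed mean counts in control and 0.933% in paused cells. Levels were also worked out for WT alone from the mean and the change, assuming 4 WT and 8 knockout libraries per table. The median over the members was then -0.61, beside 0.03 for all genes. With equal summed counts it was -0.53, beside 0.09 for all genes and 0.07 for abundant ones. Under that scaling 8 members were at least 2-fold lower, where 5.28% of all genes and 3.83% of abundant genes were.

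The 10 members at least 2-fold lower in paused cells included a phosphofructokinase, both aldolases, a subunit of lactate dehydrogenase and a lactate carrier. Slc16a3 was at 15.7% of its control level (6.39-fold lower), Ldha at 16.1% (6.22-fold lower) and Tpi1 at 21.6% (4.62-fold lower), by the mean counts of the authors' deposited tables. Among all genes in both tables these ratios rank at the 0.0627, 0.0732 and 0.199 percentiles. Pck2 followed at 28.0% (3.57-fold lower). The other 6 were Pfkl at 40.5%, Pgam1 at 42.4%, Aldoc at 43.4%, Pkm at 43.7%, Pgk1 at 48.5% and Aldoa at 49.1%, and Rpia (50.9%) and Eno1 (51.0%) lay just outside.

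A smaller set had higher mean counts in paused cells. Eno2, the enolase known from neurons, was at 192% of its control level but with mean counts of only 94.95 and 183 in the authors' deposited tables. Pdk2 was at 181%, Ldhb at 176%, Pdp1 at 165%, Slc2a3 at 162%, Pdk1 at 159%, Hk1 at 150% and Pdha1 at 126%. Pfkfb3 (95.6%), Dlat (99.0%) and Eno3 (101%) were near their control level by the deposited means. All 5 pentose phosphate members had lower means in paused cells, between 50.9% (Rpia) and 66.3% (Taldo1). The members not yet named lay between 58.1% (Slc16a1) and 78.3% (Gpi1).

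**Figure D3:**
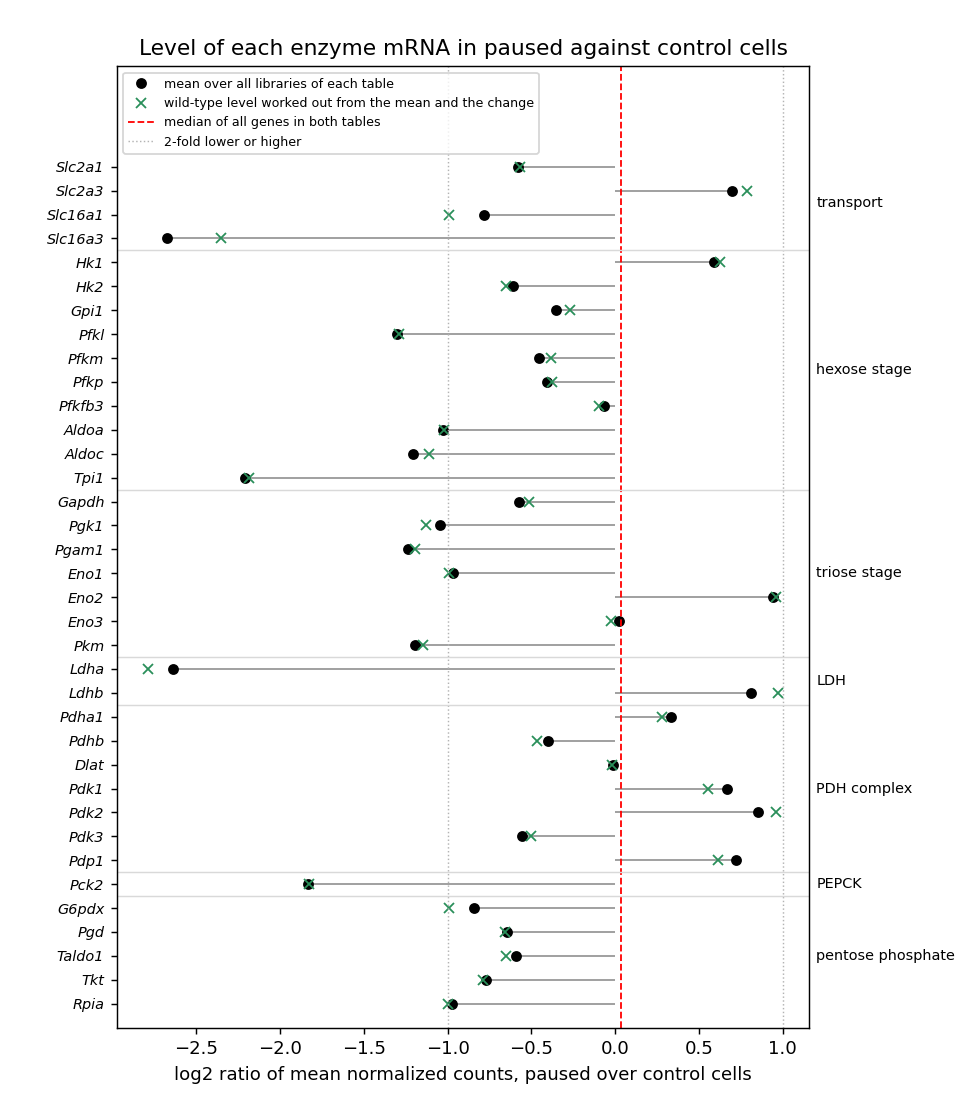
Log2 ratio of mean normalized counts, paused over control cells, for each of the 36 transcripts, from the authors' deposited tables. Black points use the mean over all libraries of a table, green crosses the wild-type level worked out from it, the dashed line is the median of all genes (0.03) and dotted lines mark 2-fold. Of the members, 27 lie below 0, Slc16a3 (-2.68) and Ldha (-2.64) lowest.

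Isoenzymes of 1 step can be compared only per length, given here as the mean normalized count per kb of the longest GENCODE transcript, and shares are those among the listed members of a family, leaving out its other genes. Ldha went from 22138 to 3561 per kb and Ldhb from 5910 to 10380, so the Ldha share of lactate dehydrogenase reads per kb was 78.9% in control and 25.5% in paused cells. With the median transcript length in place of the longest it was 85.3% and 34.7%. The Hk1 share against Hk2 was 17.8% in control and 33.1% in paused cells, and 29.9% and 49.4% with the median length. The Pfkl share of phosphofructokinase was 62.0% and 47.0%, that of Pfkp 25.1% and 35.4%, and that of Pfkm 12.8% and 17.6%. With the median length these were 57.0% and 41.7% for Pfkl, 40.7% and 55.4% for Pfkp, and 2.2% and 2.9% for Pfkm, so that in paused cells Pfkp and not Pfkl had the highest level per kb. Within the members of each family, Aldoa held 99.6% and 99.7% of the aldolase level per kb against Aldoc, and Eno1 held 98.6% and 97.2% against Eno2 and Eno3. With the near-identical copy Eno1b counted as enolase, the Eno1 share was 60.3% and 59.6% and that of Eno1b 38.8% and 38.7%, or 83.6% and 82.7% for Eno1 and 15.5% in both conditions for Eno1b with the median length. These are ratios of the authors' deposited means, without a test.

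For the carriers and the kinases the order in control cells depended on the length used, and for phosphofructokinase the order in paused cells did. The Slc2a1 share against Slc2a3 was 52.3% in control and 31.2% in paused cells with the longest transcript, and 32.0% and 16.2% with the median one. The Slc16a1 share against Slc16a3 was 73.1% and 91.0% with the longest transcript, and 38.0% and 69.4% with the median one. The Pdk1 share of the 3 kinases was 44.0% in control and 59.9% in paused cells, with Pdk3 at 48.3% and 28.2%, or 55.8% and 70.7% with Pdk3 at 38.3% and 20.7% by the median length. In paused cells both lengths put Slc2a3 over Slc2a1, Slc16a1 over Slc16a3 and Pdk1 over Pdk3.

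**Figure D4:**
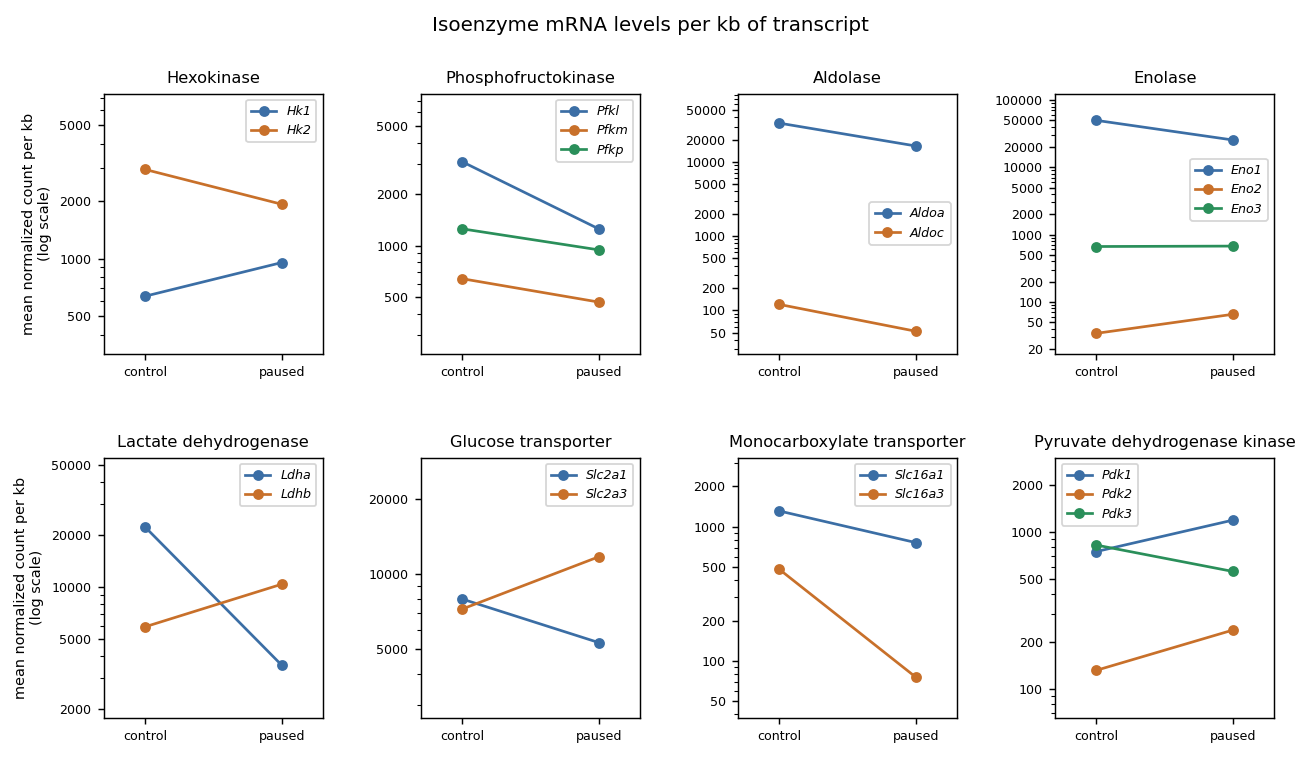
Mean normalized count per kb of the longest transcript (log scale) for the members of 8 isoenzyme families in control and paused cells, computed from the authors' deposited mean counts. Each line joins the 2 conditions of 1 gene. The lines of Ldha and Ldhb cross, from 22138 and 5910 in control to 3561 and 10380 in paused cells.

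The promoters of 4 members are shown because their levels carry these contrasts: Slc16a3 and Ldha, lowest in paused against control cells, Ldhb, which was higher there, and Slc16a1, whose knockout change differed between conditions. Each is the 250 bases before the RefSeq transcription start in GRCm38.p6 (for Ldha, of 2 starts, the one with the most GENCODE coding starts within 50 bases, the closest of them 35 bases away), read 5′ to 3′ on the strand of the gene, and capitals mark ACGTG or GCGTG, the core of the hypoxia response element, on either strand (the reverse reads CACGT or CACGC). The E-box, which reads CACGTG, holds ACGTG on both strands. Slc16a3 is at chr11:120948817-120949066 (plus strand), Ldha at chr7:46845554-46845803 (plus), Slc16a1 at chr3:104638414-104638663 (plus) and Ldhb at chr6:142507958-142508207 (minus).
Slc16a3: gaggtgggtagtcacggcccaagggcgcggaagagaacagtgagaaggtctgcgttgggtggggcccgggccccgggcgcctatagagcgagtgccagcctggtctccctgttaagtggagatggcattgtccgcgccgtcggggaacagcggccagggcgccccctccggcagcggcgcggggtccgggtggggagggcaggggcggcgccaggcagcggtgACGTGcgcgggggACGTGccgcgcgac
Ldha: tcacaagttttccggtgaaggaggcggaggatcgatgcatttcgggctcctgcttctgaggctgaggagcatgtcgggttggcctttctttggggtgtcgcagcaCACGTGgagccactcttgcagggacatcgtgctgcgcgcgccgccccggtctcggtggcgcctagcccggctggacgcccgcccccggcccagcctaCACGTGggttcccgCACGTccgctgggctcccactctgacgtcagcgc
Slc16a1: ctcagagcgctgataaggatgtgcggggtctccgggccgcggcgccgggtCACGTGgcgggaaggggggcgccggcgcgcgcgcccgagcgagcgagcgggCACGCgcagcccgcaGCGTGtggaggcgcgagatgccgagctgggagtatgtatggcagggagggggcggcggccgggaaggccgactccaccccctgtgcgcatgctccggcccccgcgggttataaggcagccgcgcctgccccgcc
Ldhb: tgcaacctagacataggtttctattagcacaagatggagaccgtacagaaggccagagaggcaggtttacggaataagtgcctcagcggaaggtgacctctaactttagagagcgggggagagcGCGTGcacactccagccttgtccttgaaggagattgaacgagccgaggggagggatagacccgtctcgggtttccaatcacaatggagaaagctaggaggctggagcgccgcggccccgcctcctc
The Ldha window holds 5 such matches and that of Slc16a1 holds 4, counted over both strands, Slc16a3 has 2 and Ldhb has 1. The E-box is present in these windows of Ldha and Slc16a1. Ldha has a second RefSeq start, 1278 bases downstream and with fewer GENCODE coding starts near it (2 against 3), whose window holds 1 match and no E-box.

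Over the list, 34 of 36 members had an entry in the promoter table (not Pdp1 and Slc2a3). Several genes have more than 1 start there, and a gene was counted if the 250 bases before any of its starts held the motif, over 49 starts of the members and 32851 of all genes. ACGTG or GCGTG occurred in 30 of 34 (88.2%), beside 41.5% of all 27025 genes in the table and 56.0% of the 13624 genes that are also in both deposited tables. Counted per start, the shares were 77.6% of the members' starts and 38.6% of all starts. With 1 start per member, the one with the most GENCODE coding starts within 50 bases, it was 27 of 34 (79.4%), since Aldoa, Hk1 and Pkm have a match only before another start. For Aldoa 3 starts tied in that number, and the window taken holds no match while those of the other 2 do. All genes were not counted with 1 start per gene, so the 79.4% has no matching share. ACGTG alone occurred in 14 (41.2%, beside 23.1% of genes in both tables) and GCGTG alone in 24 (70.6%, beside 44.96%). CACGTG occurred in 5 (14.7%, beside 9.20%): Ldha, Pdk2, Pfkfb3, Pfkm and Slc16a1. Of the Smad motifs, CAGAC occurred in 12 (35.3%, beside 46.4%, or 18 with the 50 bases after the start included, 52.9% beside 53.3%) and GGCGCC in 11 (32.4%, beside 17.4%). All were searched on both strands, and a match is a description of sequence, not a binding site. Base composition was not matched between members and other genes.

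The rest of the pathway did not all share the direction of the members. Of 9 further pentose phosphate genes 5 were higher and 0 lower in both conditions in the authors' deposited tables. Of all genes 19.5% and 20.5% were called higher and 21.9% and 22.0% lower. Among the 5 were Tktl1 (0.59 and 0.63) and Tktl2 (0.57 and 0.78), which code for transketolase-like proteins. Shpk (0.62 and 0.30), which phosphorylates sedoheptulose, and H6pd (0.41 and 0.36), the hexose phosphate dehydrogenase of the endoplasmic reticulum, were also among them. Mean counts were low for Tktl1 (73.1 and 45.4), Tktl2 (79.0 and 45.6) and Shpk (93.3 and 192). Of 25 further glycolysis genes 23 were in each table, with 6 higher and 4 lower in control and 5 higher and 5 lower in paused cells. The fructose bisphosphatases, which run the phosphofructokinase step backwards, were both higher: Fbp2 by 2.07 (SE 0.16) and 2.42 (SE 0.16), and Fbp1 by 0.92 and 1.22, in the deposited tables. Hkdc1, a further hexokinase, was higher by 2.59 and 2.06, but with mean counts of only 12.9 and 31.8. Gapdhs, the sperm form of Gapdh, fell by 0.56 in paused cells and had -0.16 in control cells, where it was not called.

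Of 21 further transport and pyruvate genes, 6 were higher and 3 lower of 19 present in control cells, and 7 higher and 3 lower of 20 present in paused cells, per the authors' deposited tables. Among all genes 19.5% and 20.5% were called higher and 21.9% and 22.0% lower. Mpc1, a subunit of the mitochondrial pyruvate carrier, rose by 0.34 and 0.49. The other 3 of the 4 with the largest called change had low counts in the deposited tables: Pdha2, given above, Slc16a7, a monocarboxylate carrier, which fell by 1.14 (SE 0.44) in control cells at a mean of 16.5 and had -0.02 in paused cells, and Slc2a12, a glucose carrier, which rose by 1.10 (SE 0.36) in control cells at a mean of 18.4 and had 0.01 in paused cells. Of the 5 glucose-sensing factors, Mlxipl rose by 0.73 and 0.47, while Mlxip rose by 0.32 and Mlx fell by 0.15 in paused cells in the deposited tables, and the difference between conditions passed for 0 of the 5. These lists were chosen with earlier results of these data known.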

How the data were processed

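Titles gave the genotype and treatment of the 24 libraries. Per the submitters' processing notes, FastQC, Trim Galore, HISAT2, featureCounts and DESeq2 were used with the mm10 build, and versions are not given in the sources used here. Per the file headers, the authors deposited 2 DESeq2 results tables. The mean normalized count is a signal value averaged by the authors over libraries that are not named. The change and its SE were deposited on the log2 scale, without a stated numerator. The deposited statistic is a score, the change over its SE, and each p-value was deposited beside its adjusted form. Whether both knockout lines entered each table is not stated.

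The planned count tests needed library counts, which the tables do not hold, so the deposited DESeq2 tests were used, with calls at an adjusted p under 0.05. Median SEs were 0.11 and 0.10 over all genes and 0.062 over the members in each table, and 35 and 34 of the 36 members exceeded a mean of 5 ppm of the summed counts. The difference test used a two-sided normal p and was tested on simulated data, the outcome of which is not given here. Its alternatives, and those of the counts, were an adjusted p under 0.01, a test against 1.2-fold, the minimum on means, a shift to the median of abundant genes (-0.05 in each table), equal summed counts under an assumed 4 WT and 8 knockout libraries, and the statistic divided by its middle spread (2.76 and 2.80, and 1.23 for the difference). Every member is named. Those called in both tables, called for the difference, or among the 6 largest called changes of a table have full values. From other lists at most 4 called genes are named by the size of their largest called change. Genes named beyond that (Smad2, copies, overlapping genes, Dld, Pdhx, Pdp2, Hif1a and Ero1a) were chosen as checks or after their values were seen. The members and lists were chosen with earlier results of these data known. Copies were found with blastn 2.17.0 and other steps used Python 3.11.15, numpy 2.4.6, scipy 1.17.1 and pandas 2.3.3.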

Additional observations from a re-analysis of the deposited data

Results flagged for a closer look

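The knockout change of Slc16a1 differed between the conditions by a test of the difference itself, at 0.31 on the log2 scale (SE 0.086, adjusted p = 0.0319 over 19134 genes), from -0.15 in control to 0.16 in paused cells, per the authors' deposited tables. It is the member of the 36 for which that test passed, and the paused change alone had an adjusted p of 0.0502. The difference missed the threshold with equal summed counts (adjusted p = 0.0516) and with the scaled statistic (adjusted p = 0.332). Under the shift to the median of abundant genes and with equal summed counts the paused rise passed (adjusted p = 0.0091 and 0.0146) and the control fall did not (adjusted p = 0.13 and 0.138).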

How the results depend on the processing

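At an adjusted p under 0.01, under both shifts and with the minimum on means, 13 to 17 members were called in either direction in control (17 as deposited) and 20 to 22 in paused cells (21 as deposited). Those called lower were 9 to 14 in control (14 as deposited) and 15 to 16 in paused cells (17 as deposited). The test against 1.2-fold left 0 members in control and 2 in paused cells, of 2090 and 2122 genes, and the scaled statistic left 0 and 0, of 293 and 450 genes; at an unadjusted p under 0.05 these kept 4 and 3, and 5 and 6. The difference went from 1 member to 0 at an adjusted p under 0.01, with the 1.2-fold test (0 also at an unadjusted p under 0.05, and 2 genes of all), with equal summed counts (5 unadjusted) and with the scaled statistic (3 unadjusted, 35 genes of all). The shifts moved the split of all genes from 3858 higher and 4331 lower to 4723 and 3138 (median) or 4763 and 3105 (equal sums) in control, and from 4102 and 4402 to 4983 and 3197 or 4731 and 3484 in paused cells. The members' split went from 3 and 14 to 4 and 10 or 4 and 9 in control, and from 4 and 17 to 7 and 15 or 6 and 15 in paused cells. Uncalled members turned sign under them, by median shift and equal sums: in control Hk2 0.029 and 0.031, Pfkm 0.017 and 0.019, Aldoa 0.026 and 0.028, Ldha 0.0071 and 0.0089, and Pgd 0.029 and 0.031, and in paused cells Aldoa 0.017 and 0.0050, and Pgd 0.039 and 0.027. The control calls of Slc16a1, Aldoc, Pgam1 and Pkm were lost under both shifts and that of Dlat with equal sums; the cause was not tested.

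With the median transcript length, shares in control and paused cells were 29.9% and 49.4% for Hk1, 57.0% and 41.7% for Pfkl, 99.2% and 99.3% for Aldoa, 99.0% and 97.9% for Eno1 among Eno1 to Eno3, 85.3% and 34.7% for Ldha, 32.0% and 16.2% for Slc2a1, 38.0% and 69.4% for Slc16a1, and 55.8% and 70.7% for Pdk1. Over all 300 bases of the promoter entries CAGAC occurred in 18 of 34 members (52.9%) and 53.3% of genes in both tables, where over 250 bases it occurred in 12 (35.3%) and 46.4%. Counting Eno1b as enolase, chosen after seeing the data, gave an Eno1 share of 60.3% and 59.6% (83.6% and 82.7% with the median length). Counting 1 start per member, also chosen then, gave 12 with ACGTG, 21 with GCGTG, 5 with CACGTG, 9 with CAGAC, 10 with GGCGCC and 27 with ACGTG or GCGTG. All genes were not counted in that way, so these counts have no matching share.

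No paired analysis was possible because the tables hold no library values, and leaving out single libraries or a knockout line was not run for the same reason.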

Other observations

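The 16 hypoxia-inducible factor targets outside glycolysis had a median log2 ratio of mean counts, paused over control, of -0.77, with 13 of 16 lower and 8 at least 2-fold lower, by the authors' deposited means and without a test. Of all genes 6.08% were at least 2-fold lower, and the median ratio was 0.03. With Smad2 loss these targets did not move one way: 7 were higher and 2 lower in control cells, and 5 higher and 2 lower in paused cells. Among all genes 19.5% and 20.5% were called higher and 21.9% and 22.0% lower. Ndrg1, a stress-responsive gene, rose by 0.68 in control and 1.27 in paused cells, per the same tables, a difference of 0.59 (adjusted p = 0.00609). P4ha2, a collagen prolyl hydroxylase, rose by 0.51 and 0.63 and Vegfa, an angiogenic factor, by 0.59 and 0.39, while Ddit4, an inhibitor of mTOR signalling, rose by 0.38 in control cells and had -0.06 in paused cells in the deposited tables. Ero1a, an oxidase of protein folding and, with Ndrg1, the list's other gene past the test of the difference, had a difference of -0.27 (adjusted p = 0.0128). Of 8 genes of the factor and its sensors, Epas1 (0.62 and 0.74) and Arnt (0.22 and 0.28) rose and Egln1, an oxygen-sensing hydroxylase, fell by 0.14 and 0.26, while Hif1a had 0.04 and -0.04 and was not called in the deposited tables.

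A list of 22 genes held the tricarboxylic acid cycle enzymes together with the cytosolic forms Aco1, Idh1 and Mdh1 and the malic enzymes Me1 and Me2, which are not steps of the cycle. Of the 22, 6 were higher and 8 lower in control cells, and 5 higher and 8 lower in paused cells, per the authors' deposited tables. Among all genes 19.5% and 20.5% were called higher and 21.9% and 22.0% lower. Among abundant genes 19.0% and 20.2% were called higher and 32.6% and 32.8% lower. Idh2 (0.54 and 0.40), the mitochondrial NADP-linked isocitrate dehydrogenase, and its cytosolic form Idh1 (0.36 and 0.30) rose, and the cytosolic aconitase Aco1 fell by 0.31 and 0.48. Fh1, the fumarase, fell by 0.19 and 0.40, a difference of -0.21 (adjusted p = 0.0307). The median log2 ratio over the 22 of mean counts, paused over control, was -0.41, with 17 of 22 lower and 2 at least 2-fold lower, by the deposited means and without a test. Of all genes 6.08% were at least 2-fold lower, and the median ratio was 0.03.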
